A study of Mus musculus with 495 samples.

Results

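Single cells of the embryonic mouse pancreas at E17.5 were divided by whether they held messenger RNA of the Cre recombinase of their own strain. The members were chosen by their Cre reads: a cell was counted as Cre-transcribing when the Cre row of the count table reached 10 CPM (reads per 1000000 reads of that cell) and as Cre-silent below that. The E17.5 cells comprised 68 Cre-transcribing and 61 Cre-silent cells, out of 495 cells in the series. Plate EA06 held 24 and 33 of them and plate EA07 held 44 and 28. The split itself uses the Cre reads, so the Cre levels of the groups are a description, and every other gene was read in the same cells that were split.

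Neurog3 (neurogenin 3) is the basic helix-loop-helix transcription factor that starts the endocrine programme in the embryonic pancreas. It is made briefly, in cells leaving the duct-like epithelium, and is lost as the cells become alpha, beta, delta, epsilon or PP cells, which make glucagon, insulin, somatostatin, ghrelin and pancreatic polypeptide. In a Neurog3-Cre strain the recombinase is driven by Neurog3 control sequences, and the Rosa-mTmG reporter changes permanently from membrane tomato to membrane GFP in a cell that has held active Cre and in its descendants. Cre messenger RNA is therefore closer to the present state of the driver than the reporter, which keeps the past of the lineage. How closely Cre messenger RNA follows the cell's own Neurog3 gene in time was not tested.

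The series sequenced pancreatic cells with Smart-seq2, a plate method that reads full-length transcripts, without molecular identifiers, 1 cell to a well. The E17.5 cells carried the plate code for Neurog3-cre and the genotype Neurog3-Cre with Rosa-mTmG. The other 366 cells were taken at E15.5 from the Neurog3-eGFP strain, on plates coded Neurog3, endocrine and duct, and serve here only as background for the Cre row. The labels name no embryo, litter or sorting gate, so all E17.5 cells are 1 sample, cells are not replicates, and no test was run. Plates EA06 and EA07 were compared separately. They may hold cells of the same embryos, and intervals cover counting error only.

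The E17.5 cells held 293943 to 1182889 reads. Median depth was 561050 reads in Cre-transcribing and 551913 in Cre-silent cells of EA06, and 876667 and 830959 in EA07. Median genes detected were 2226 and 2370 in EA06 and 3825 and 4175 in EA07, so the plates differed from each other more than the Cre groups within a plate. By row of wells the Cre-transcribing share ran from 0% (0 of 4 cells) to 57.1% in EA06 and from 33.3% to 75% in EA07. The 4 Y-linked genes of the sex list held 0 reads in the E17.5 cells, against 21590 reads in 150 of the 366 E15.5 cells. Xist, the RNA of the inactive X chromosome, reached 20 CPM in 64 of 68 Cre-transcribing and 54 of 61 Cre-silent cells.

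The strain's Cre is named after Neurog3 (chr10:62133090-62134763, forward strand, GRCm38), so the 250 bases upstream of its RefSeq start are shown, beside those of Cck, the gene with the next largest mean ratio among the leading genes higher in Cre-transcribing cells. Capitals mark the motifs searched, CAGCTG and CAGATG, which are forms of the E-box (CANNTG) that basic helix-loop-helix factors can bind, and other CANNTG stretches are left in lower case. CAGCTG was found starting 165 bases before the Neurog3 start and CAGATG starting 30 bases before the Cck start. The sequences are from RefSeq, GRCm38.p6, chr10:62132840-62133089 on the forward strand and chr9:121495695-121495944 on the reverse strand. The control sequence of the Cre construct itself was not used here.
Neurog3: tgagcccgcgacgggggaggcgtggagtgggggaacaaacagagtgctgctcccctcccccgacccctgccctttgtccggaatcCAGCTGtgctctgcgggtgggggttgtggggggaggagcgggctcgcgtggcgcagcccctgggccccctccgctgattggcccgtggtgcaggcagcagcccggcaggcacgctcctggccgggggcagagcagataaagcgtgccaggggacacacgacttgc
Cck: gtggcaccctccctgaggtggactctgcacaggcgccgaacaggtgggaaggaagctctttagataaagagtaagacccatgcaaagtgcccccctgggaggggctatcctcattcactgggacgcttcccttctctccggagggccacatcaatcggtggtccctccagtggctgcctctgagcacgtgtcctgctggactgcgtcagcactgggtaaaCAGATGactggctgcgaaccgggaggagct

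In RefSeq windows from 250 bases before to 50 after a start, CAGATG or its reverse complement was found in 3 of 16 windows (18.8%) of the 12 matched genes among the 15 leading genes higher in Cre-transcribing cells. Those 3 genes were Cck, Cer1 and Cbfa2t3. The share over all 32851 windows was 17.2%. For CAGCTG, whose reverse complement is itself, the shares were 18.8% and 16.3%, for TATAAA 6.25% and 13.6%, and for CACNAG 43.8% and 42.5%. Among the leading genes lower in Cre-transcribing cells, 11 of 15 matched with 12 windows, and CAGATG was in 16.7% of these and CAGCTG in 0. A match describes letters in these windows only.

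The Cre row split the E17.5 cells with a wide gap. Of the Cre-silent cells, 55 had 0 Cre reads and 6 had 1 to 5 reads, the highest at 7.90 CPM. The lowest Cre-transcribing cells stood at 31.3 CPM (20 reads) in EA06 and 29.7 CPM (28 reads) in EA07. Levels among Cre-transcribing cells ran from 31.3 to 4107 CPM with a median of 534 in EA06, and from 29.7 to 5139 CPM with a median of 353 in EA07. No cell therefore lay between 7.90 and 29.7 CPM. The 366 E15.5 cells, whose labelled genotype has no Cre, held 0 Cre reads on all 5 plates, although 4 of those plates held between 10686 and 83855 Neurog3 reads.

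Neurog3 was high where Cre was high. In EA06 its level ran from 0 to 10062 CPM (median 1817) in the 24 Cre-transcribing cells and from 0 to 582 CPM (median 0) in the 33 Cre-silent cells. In EA07 it ran from 0 to 14550 CPM (median 1068) in 44 cells and from 0 to 905 CPM (median 0) in 28 cells. The ranges overlapped below 905 CPM, and the higher levels belonged to Cre-transcribing cells alone in both plates. Summed over the cells of a group, Neurog3 stood at 3106 against 78.2 CPM in EA06 and at 3342 against 83.7 CPM in EA07, 39.7-fold and 39.9-fold higher. On the log2 scale with 5 CPM added to each sum, used for every log2 ratio here, these are 5.23 and 5.24.

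Counted as cells with Neurog3 at 20 CPM or more, 61 of 68 Cre-transcribing cells were positive, 89.7% (exact Clopper-Pearson 95% interval 79.9 to 95.8). Of the Cre-silent cells 16 of 61 were positive, 26.2% (15.8 to 39.1). The plates gave 95.8% against 30.3% in EA06 and 86.4% against 21.4% in EA07. Read the other way, 61 of the 77 Neurog3-positive cells transcribed Cre, 79.2% (68.5 to 87.6). Spearman's rho between Cre and Neurog3 was 0.74 over the 57 cells of EA06 and 0.85 over the 72 cells of EA07, and 0.65 and 0.81 within the Cre-transcribing cells alone. These correlations are descriptions over cells that share a plate and a range of depths.

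**Figure D1:**
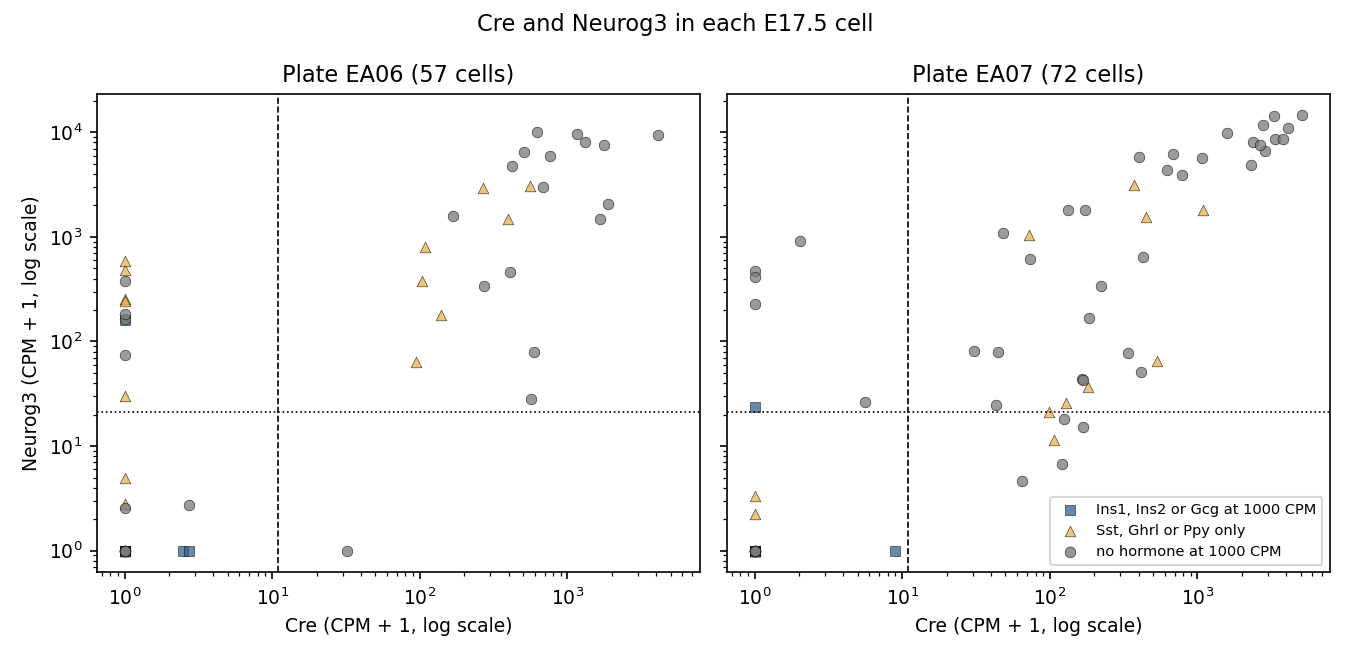
Cre (horizontal) and Neurog3 (vertical) in each E17.5 cell, as CPM + 1 on log axes, by plate; dashed line, the 10 CPM limit of Cre; dotted line, the 20 CPM limit of Neurog3; symbols, hormone state at 1000 CPM. No cell lies between 7.90 and 29.7 CPM of Cre, squares (insulin or glucagon cells) lie left of the dashed line, and Neurog3 climbs with Cre to its right.

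Neurog3 ranked first of 5172 genes by the lower of the plates' rho with Cre. Next came Krt7, a keratin of simple epithelia, at 0.68 in EA06 and 0.62 in EA07, and Mdk, the secreted growth factor midkine, at 0.57 and 0.62. Cbfa2t3, an ETO-family corepressor, stood at 0.72 and 0.49.

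Cells where Cre and Neurog3 parted were few in the Cre-transcribing group. Its 7 Neurog3-negative cells, 1 in EA06 and 6 in EA07, held 31.3 to 168 CPM of Cre and 0 to 17.1 CPM of Neurog3. Of these, 6 expressed Fev at 20 CPM or more, a transcription factor of precursors that have passed the Neurog3 peak, and 1 of those was a ghrelin cell. The remaining cell had neither Fev nor a hormone. In the other direction 16 Cre-silent cells, 10 in EA06 and 6 in EA07, held 22.5 to 905 CPM of Neurog3, and 14 of them had 0 Cre reads. These 16 comprised 4 ghrelin, 1 somatostatin and 2 Ins2 cells, and Fev reached 20 CPM in 9. The remaining 45 Cre-silent cells had no Neurog3 at 20 CPM. Of these, 29 expressed a hormone, 24 expressed Fev and 6 expressed neither.

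Among Cre-transcribing cells, Neurog3 was highest and hormone cells were fewest in the class with the most Cre. The 19 cells with 1000 CPM of Cre or more held 1467 to 14550 CPM of Neurog3 (median 8093), the 39 cells between 100 and 1000 CPM held a median of 459 CPM, and the 10 cells below 100 CPM a median of 70.8 CPM. The lower classes were in that order in EA06 alone: the 100 to 1000 CPM class had a Neurog3 median of 1533 CPM in EA06 (16 cells) and 76.4 CPM in EA07 (23 cells), and the class below 100 CPM had 31.3 CPM (2 cells) and 79.8 CPM (8 cells). Hormones were expressed by 1 of 19, 12 of 39 and 3 of 10 of these cells. Chgb, the granule protein chromogranin B, had medians of 0, 54.2 and 3510 CPM from the highest to the lowest Cre class, where the middle class stood at 0 in EA06 and 1899 CPM in EA07. Pax4, a transcription factor needed for beta and delta cells, had medians of 1188, 0 and 102.9 CPM, with no steady order. Hes6, a helix-loop-helix gene of Neurog3-expressing cells, had medians of 710, 223 and 234 CPM, with 0 in EA06 and 407 CPM in EA07 for the middle class. Fev reached 20 CPM in 3 of 19, 18 of 39 and 7 of 10 cells.

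GFP was read in every cell of both groups. In EA06 its level ran from 270 to 3491 CPM (median 1352) in Cre-transcribing cells and had a median of 945 CPM in Cre-silent cells. In EA07 the medians were 1267 and 1216 CPM. The ranges overlapped almost fully, from 136.9 to 4079 CPM over all E17.5 cells, and the summed levels were 1314.5 against 1217 CPM and 1391 against 1394 CPM. Spearman's rho between Cre and GFP was 0.14 in EA06 and 0.02 in EA07. The table has 1 GFP row, which does not tell the reporter's GFP from other GFP, and at E15.5, in the eGFP strain, 51 of 366 cells had a GFP read. The tomato row held 1 read in 1 Cre-silent cell of EA06 and 0 elsewhere. No cell of the series read tomato at a higher level, so the row gives no check of its own sensitivity.

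Hormone genes separated the groups. A cell was counted as hormone-positive when Ins1, Ins2, Gcg, Sst, Ppy or Ghrl reached 1000 CPM. Of the Cre-transcribing cells 16 of 68 were positive, 23.5% (14.1 to 35.4), and of the Cre-silent cells 36 of 61, 59% (45.7 to 71.5). The plates gave 29.2% against 60.6% and 20.5% against 57.1%. With Ins1 and Ins2 counted as 1 hormone, at least 2 hormones at that level were found in 2 Cre-transcribing and 8 Cre-silent cells.

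The difference was not the same for every hormone. Insulin and glucagon cells were all Cre-silent: of 19 cells with Ins1, Ins2 or Gcg at 1000 CPM, 0 transcribed Cre (upper limit 17.6%). None of the 68 Cre-transcribing cells was such a cell (exact upper limit 5.28%). Ghrelin cells, by contrast, transcribed Cre in 12 of 20 (60%, 36.1 to 80.9), somatostatin cells in 4 of 15 (26.7%, 7.79 to 55.1) and Ppy cells in 2 of 8 (25%, 3.19 to 65.1). The share over all E17.5 cells was 52.7% (42.1% in EA06 and 61.1% in EA07), which lies within each of these intervals. By plate the ghrelin share was 50% in EA06 and 83.3% in EA07. The glucagon part depends on the limit: 3 Cre-transcribing cells held 545, 811 and 991 CPM of Gcg, and the first 2 of these were ghrelin cells.

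**Figure D2:**
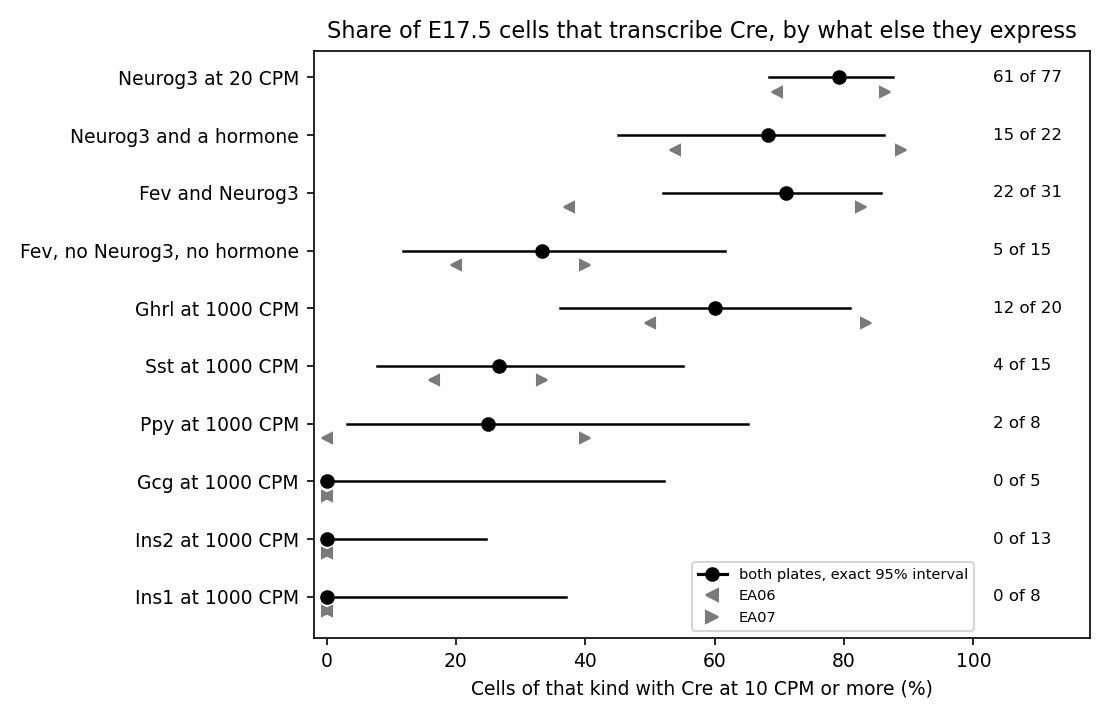
Share of E17.5 cells of each kind (rows) that reached 10 CPM of Cre, in percent; circles and lines, both plates with exact 95% intervals for counting error; triangles, each plate; numbers at right, cells. Neurog3-positive cells stand at 79.2%, ghrelin cells at 60%, somatostatin cells at 26.7% and the Gcg, Ins1 and Ins2 cells at 0. Over all E17.5 cells, not drawn, the share is 52.7%.

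Ins2, one of the mouse insulin genes, ran from 0 to 76.1 CPM (median 0) in Cre-transcribing and from 0 to 47410 CPM (median 1.71) in Cre-silent cells of EA06. In EA07 it ran from 0 to 158 CPM (median 0) and from 0 to 36403 CPM (median 12.4). Most cells of both groups were thus low, and the high cells were Cre-silent. Its summed level was 3.75 against 3592 CPM and 11.97 against 5811 CPM, log2 ratios of -8.68 and -8.42. Ins1, the other insulin gene, had summed levels of 8.28 against 1831 CPM and 8.05 against 2214 CPM (-7.11 and -7.41). Gcg, the glucagon gene, stood at 72.7 against 2766 CPM and 19.8 against 1238 CPM (-5.16 and -5.65). The EA07 value of Gcg rested on 1 cell: without the highest cell of each group it was -1.01.

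Iapp, the amyloid peptide stored with insulin, had medians of 0 against 251 CPM in EA06 and 0 against 606 CPM in EA07 (log2 ratios of -3.31 and -2.36). Pyy, peptide YY, an early hormone of islet cells, had medians of 0 against 4166 CPM and 0 against 3220 CPM (-1.49 and -1.40). Ppy, pancreatic polypeptide, had 0 reads in the Cre-transcribing cells of EA06 against 1095 CPM. Counted against 3 reads over the group this is at least 5160-fold lower, a bound on reads that leaves out the spread between cells. Ppy reached 1000 CPM in 3 of 33 Cre-silent cells of EA06 (9.09%) and in 0 of 24 Cre-transcribing cells (exact upper limit 14.2%). By cells the groups of EA06 are thus not told apart. In EA07 Ppy stood at 81.02 against 235 CPM (-1.48), with highest cells of 2283 and 2190 CPM.

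Ghrl and Sst did not separate the groups in both plates. Ghrl, the ghrelin gene, had a highest cell of 22234 CPM in Cre-transcribing and 38632 CPM in Cre-silent cells of EA06, and of 20286 and 2586 CPM in EA07. Its log2 ratios were -0.39 and 4.18, in opposite directions. Sst, somatostatin, had highest cells of 29828 and 18696 CPM in EA06 and of 31356 and 49321 CPM in EA07, with log2 ratios of -0.02 and -2.33. Without the highest cell of each group the Sst ratios were -7.44 and -4.31, so single cells set the Sst sums of the Cre-transcribing groups.

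**Figure D3:**
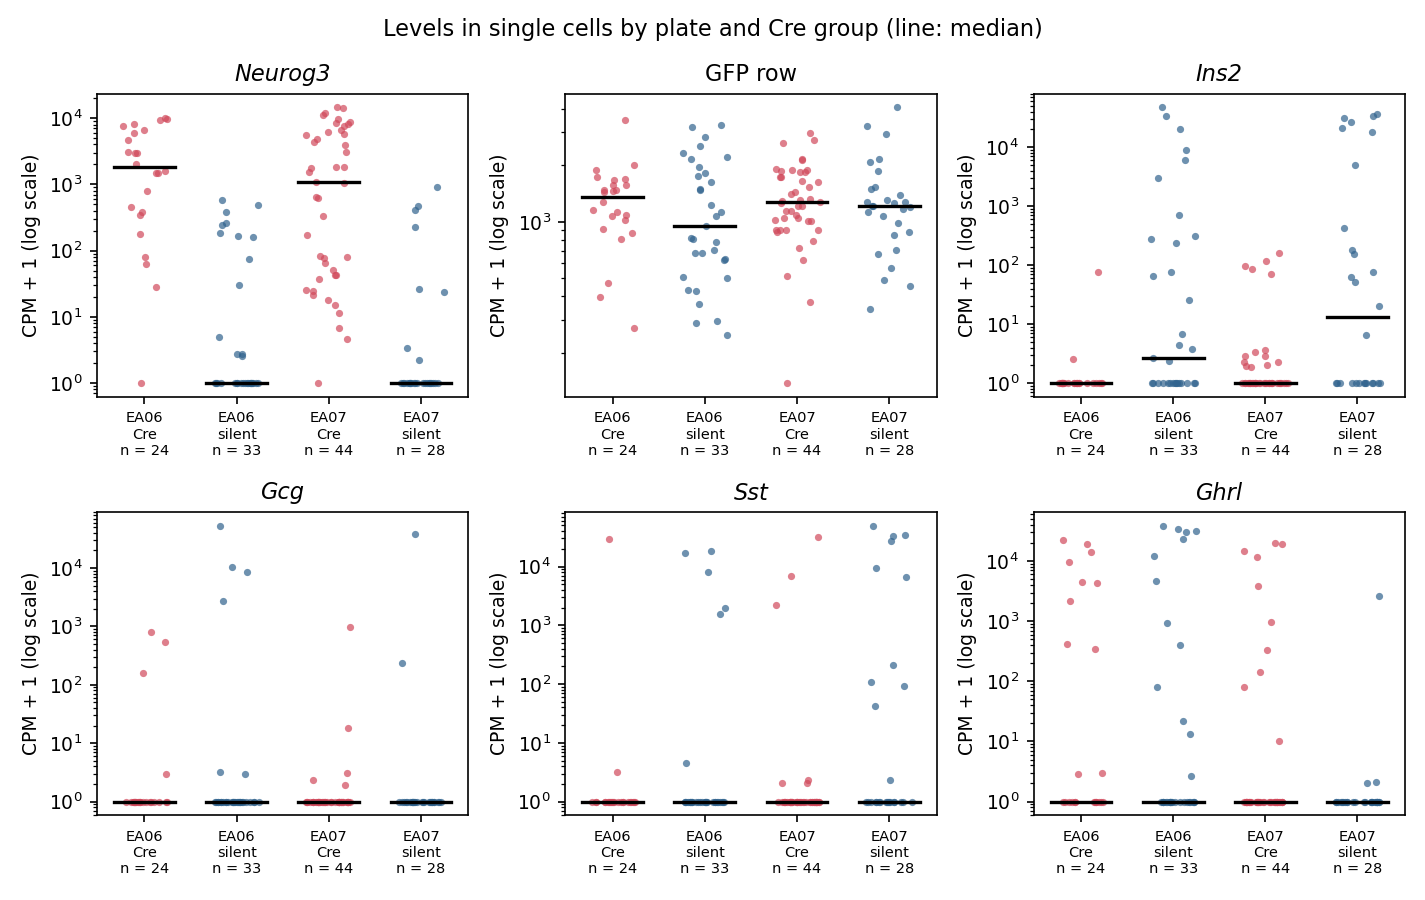
Neurog3, GFP, Ins2, Gcg, Sst and Ghrl in each E17.5 cell, as CPM + 1 on log axes, by plate and Cre group; points, cells; lines, medians. Neurog3 separates most cells of the groups, GFP overlaps, Ins2 exceeds 158 CPM in Cre-silent cells only, and Ghrl is high in cells of both groups.

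The 12 Cre-transcribing ghrelin cells held 2164 to 22234 CPM of Ghrl (median 12948) and 10.5 to 3115 CPM of Neurog3 (median 924). The 8 Cre-silent ghrelin cells held 2586 to 38632 CPM of Ghrl (median 26769) and 0 to 582 CPM of Neurog3 (median 16.6). Both ranges overlapped. The plates were not balanced here: 7 of the 12 and 7 of the 8 cells came from EA06, so other values are given within EA06. There median Ghrl was 9653 against 30180.5 CPM and median Neurog3 801 against 29.3 CPM. Cck, the hormone cholecystokinin, was at 20 CPM in 5 of 7 against 0 of 7 cells of EA06, Prom1, a membrane protein of epithelial protrusions, in 4 against 1, and Cldn6, an embryonic tight junction protein, in 4 against 3. Chga, chromogranin A, had a median of 518 against 113.5 CPM in those cells. The single Cre-silent ghrelin cell of EA07 allows no such comparison. Pax4 had 0 reads in all 12 Cre-transcribing ghrelin cells, although 36 of 52 Cre-transcribing cells without a hormone had Pax4 at 20 CPM.

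The 4 Cre-transcribing somatostatin cells held 2245.5 to 31356 CPM of Sst and 20.3 to 1555 CPM of Neurog3, and the 11 Cre-silent ones 1575 to 49321 CPM and 0 to 484 CPM. Hhex, the delta cell transcription factor, was expressed in all 15, at 1389 to 2786 CPM and at 1185 to 3270 CPM. The Hhex ranges overlapped, with medians of 1721 and 1437 CPM.

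Across the genome, 9489 genes were measured, meaning 20 CPM or more in at least 1 of the 4 sums. A gene was called when it was over 2-fold higher, or over 2-fold lower, in Cre-transcribing cells of both plates. This held for 360 genes higher, 3.79% of those measured, and for 413 lower, 4.35%. The 360 include the Cre row, which made the split. Another 423 genes (4.46%) were over 2-fold apart in opposite directions in the plates. The plates' ratios had a Pearson r of 0.16 across 9488 genes, which are not independent replicates. A single call thus carries little weight. Lists, and for many genes per-cell values, are given beside the calls. EA06, with fewer cells and genes, had more genes past 2-fold (1932 higher, 2455 lower) than EA07 (1143 and 1041).

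**Figure D4:**
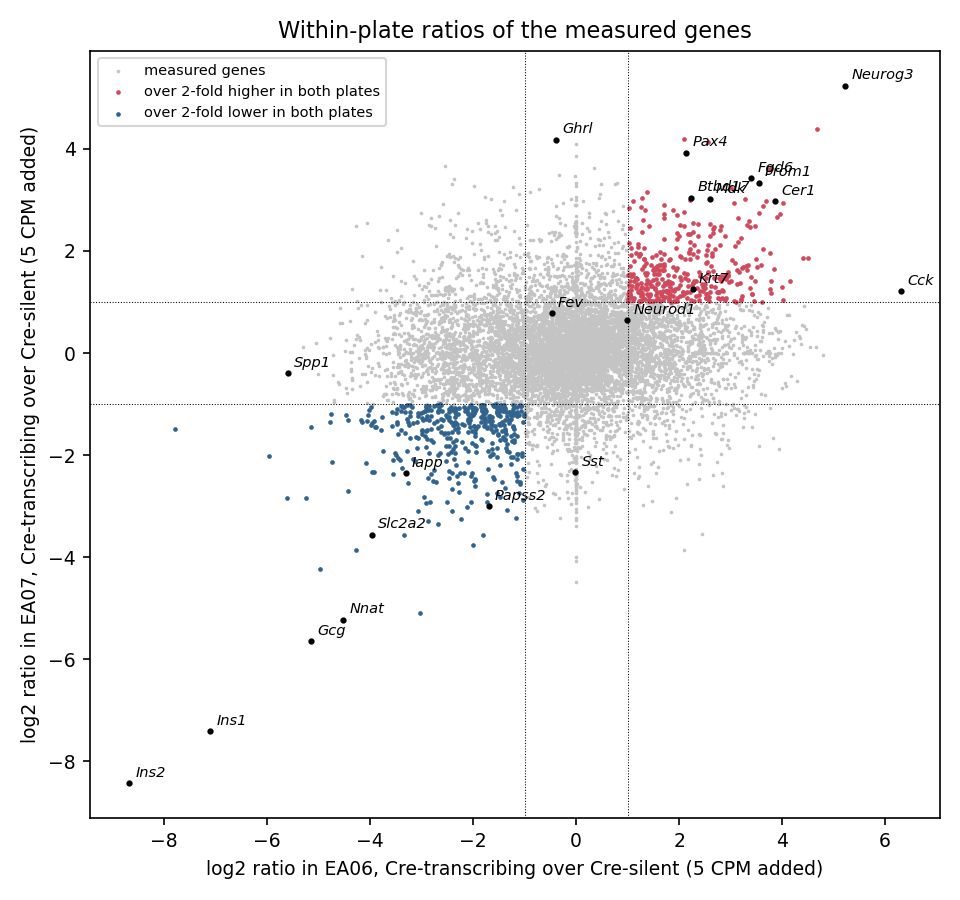
Log2 ratio of Cre-transcribing over Cre-silent cells (5 CPM added) for the measured genes other than Cre, EA06 (horizontal) against EA07 (vertical); dotted lines, 2-fold; red and blue, past 2-fold in the same direction in both plates. Neurog3 stands at 5.23 and 5.24, Ins2 at -8.68 and -8.42, and Ghrl and Spp1 lie off the diagonal.

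Most genes listed here for the Neurog3-expressing progenitor were higher in Cre-transcribing cells. The list was chosen with earlier results of these cells known and holds Neurog3 itself, so its counts are a description and no separate support. Of its 20 genes 20 were measured, 13 were called higher and 0 lower, against 3.79% and 4.35% over all measured genes. Its median log2 ratio was 1.82, against -0.03 over all measured genes. Pax4 ran from 0 to 3108 CPM (median 107.6) against 0 to 2108 CPM (median 0) in EA06, and from 0 to 4219 CPM (median 287) against 0 to 541 CPM (median 0) in EA07. Its log2 ratios were 2.14 and 3.93. The Pax4 ranges overlapped, and 14 of 24 and 25 of 44 Cre-transcribing cells reached 10 CPM, against 6 of 33 and 6 of 28.

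Mdk had medians of 1094 against 0 CPM in EA06 and 282 against 0 CPM in EA07 (2.59 and 3.01). Btbd17, a little-studied gene of endocrine progenitors, stood at 135.4 against 24.9 CPM and 354 against 38.5 CPM (2.23 and 3.05). Cbfa2t3 had medians of 286 against 0 CPM and 22.8 against 1.38 CPM (2.61 and 2.29). Gadd45a, a stress and DNA demethylation gene, had log2 ratios of 3.14 and 2.17 and a median of 0 in every group. It reached 10 CPM in 41.7% against 3.03% of cells in EA06, but in 40.9% against 35.7% in EA07. Mfng, a Notch-modifying glycosyltransferase, had log2 ratios of 1.71 and 2.90, with 20.8% against 12.1% and 50% against 21.4% of cells at 10 CPM. All genes of this paragraph had cells at 0 in both groups, so the groups overlapped at the low end.

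Cck stood at 899 against 6.38 CPM in EA06, where 13 of 24 against 2 of 33 cells reached 10 CPM. In EA07 it stood at 161 against 66.9 CPM, with 13 of 44 against 4 of 28 cells, and the log2 ratio of 1.21 there was 2.49 without the highest cells. Prom1 had log2 ratios of 3.55 and 3.34, Cer1, a secreted antagonist of Nodal and BMP, 3.87 and 2.98, and Fgd6, an exchange factor for the GTPase Cdc42, 3.40 and 3.43. Sulf2, an enzyme that trims heparan sulfate, had 3.32 and 2.51, and Olfm1, a secreted glycoprotein, 3.48 and 2.48. Cer1 and Fgd6 had medians of 0 in every group. Cer1 reached 10 CPM in 25% against 6.06% of cells in EA06 and 38.6% against 7.14% in EA07. For Fgd6 these shares were 33.3% against 12.1% and 31.8% against 7.14%. In Cre-transcribing cells of EA07 the Cer1 sum was 126.5 CPM, and 76.3 CPM without the highest cell. Epb4.1l5, Mxd1 and Brd7 completed the leading 15 with Gadd45a, Mdk, Btbd17, Cbfa2t3, Pax4 and Neurog3.

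Some epithelial genes were among those higher, and others were not. Krt7 was read in most cells: at 10 CPM in 23 of 24 and 42 of 44 Cre-transcribing cells and in 22 of 33 and 25 of 28 Cre-silent cells. Its medians were 1168 against 92.7 CPM in EA06 and 1142 against 482 CPM in EA07 (log2 ratios of 2.26 and 1.26). Cldn6 had medians of 714 against 0 CPM and 437 against 162 CPM (2.21 and 2.17). Insrr, an insulin receptor relative that senses alkaline pH, had medians of 99.8 against 0 CPM and 454 against 21.6 CPM (2.003 and 2.29). Of 18 measured genes of adhesion and the cytoskeleton, 3 were higher (Cldn6, Krt7, Stmn1) and 1 lower (Cdh2), with a median of 0.32. Among epithelial members not called, Cdh1 (-0.86 and -0.58), Cldn3 (-3.99 and -0.37), Cldn7 (-0.48 and -0.24) and Krt18 (-0.02 and -0.57) had negative ratios. Cldn4 (0.56 and 0.55), Krt8 (0.08 and 0.56) and Krt19 (3.20 and 0.49) had positive ratios, and Epcam had 0.14 and -0.11.

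Transcription factors acting after Neurog3 were less uniform. Of 13 measured target factors 4 were higher (Pax4, Cbfa2t3, Myt1 and Neurod2) and 0 lower, with a median of 0.86. Myt1, a zinc finger factor, had log2 ratios of 3.42 and 1.15. Neurod2 had 66.9 CPM against 0 reads in EA06, at least 423-fold higher counted against 3 reads over the group, and 25.7 against 4.804 CPM in EA07. Neurod1, the main downstream factor, had medians of 407 against 297 CPM in EA06 and 647 against 323 CPM in EA07 (0.99 and 0.65), which was not called. A broader list of endocrine factors, which shares members with that one, had 1 higher (Myt1) and 0 lower of 16 measured, with a median of 0.27. Of 5 measured ETO and Sox family members 2 were higher, Cbfa2t3 and Sox4, with a median of 1.45.

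Notch genes were mostly low: 9 of 20 were not measured. Of the 11 measured, Hes6, Mfng and Dll3, a Notch ligand relative, were higher and Notch1, a receptor, was lower. The EA06 ratio of Dll3 rested on 1 cell: it was 2.35, and 0.51 without the highest cells. The median was 0.25, and -0.34 when sums of 0 reads were set at 3 reads, so it has no firm sign. Notch1 stood at 24.9 against 60.9 CPM and 14.5 against 98.3 CPM (-1.14 and -2.40). Hes1, a Notch target, had 0 reads against 43.1 CPM in EA06 and 61.7 against 75.5 CPM in EA07.

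The leading genes lower in Cre-transcribing cells included hormone and granule genes. Nnat, neuronatin, a membrane protein of the endoplasmic reticulum that is abundant in beta cells, had highest cells of 304 against 4130 CPM in EA06 and 1746 against 14580 CPM in EA07 (log2 ratios of -4.53 and -5.22). Scg2, secretogranin 2, had 2 reads against 318 CPM in EA06 and 221 against 903 CPM in EA07 (-5.97 and -2.01). Papss2, which makes the sulfate donor PAPS, stood at 15.3 against 60.8 CPM and 37.4 against 334 CPM (-1.70 and -3.00). Of the 15 leading lower genes the others were Ins2, Ins1, Iapp, Cyb5, Tmsb15b2, Slc7a2, Ank, Entpd3, Ppapdc1b, Grb14, Tubb2a and Cuedc2.

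Of 12 measured hormone genes 7 were lower and 1, Cck, was higher. The median was -2.24, and -4.02 with sums of 0 reads set at 3 reads. Of 22 measured granule and exocytosis genes 7 were lower (Scg2, Scg3, Pcsk1, Pcsk2, Resp18, Rab3b and Slc30a8) and 0 higher, with a median of -0.74. Pcsk2, a prohormone convertase, had medians of 0 against 148.6 CPM and 0 against 839 CPM (-2.47 and -1.09). Chga was not called: its medians were 497 against 353 CPM in EA06 and 3169 against 2280 CPM in EA07 (1.04 and 0.06).

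Beta cell genes of glucose sensing were lower in 4 of 9 measured members, with a median of -1.25. Slc2a2, the glucose transporter GLUT2, had 0 reads in the Cre-transcribing cells of EA06 against 73.6 CPM, and 8.02 against 148.1 CPM in EA07. Counted against 3 reads over the group the EA06 value is at least 347-fold lower, a bound on reads that leaves out the spread between cells. G6pc2, a glucose-6-phosphatase of islets, had 0 reads against 91.9 CPM and 3.09 against 111.8 CPM. Slc30a8, the zinc transporter of insulin granules, had 0 reads against 239 CPM and 29.3 against 239 CPM. These transcripts were read at 10 CPM in 3, 3 and 6 of 33 Cre-silent cells of EA06 and in 8, 8 and 11 of 28 of EA07.

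Few transcription factors of the beta and alpha lineages were called, as among all measured genes, of which 3.79% were higher and 4.35% lower. Pdx1 had log2 ratios of -0.28 and -0.70 and Nkx6-1 of 0.64 and 0.60. Of 7 measured beta factors 1 was called, Pax4, and of 6 alpha factors 0, with medians of -0.53 and -0.46. Of 9 delta and epsilon genes, with a median of 0.03, 3 were lower: Hhex, Frzb and Rbp4, a retinol carrier whose medians were 0 against 2063 CPM and 150 against 2188 CPM (-1.77 and -1.31).

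Few of the Fev and serotonin genes were called, as among all measured genes (3.79% higher and 4.35% lower). Fev reached 20 CPM in 28 of 68 Cre-transcribing cells (41.2%, 29.4 to 53.8) and in 33 of 61 Cre-silent cells (54.1%, 40.9 to 66.9). The plates gave 16.7% against 45.5% in EA06 and 54.5% against 64.3% in EA07, lower in Cre-transcribing cells of both. Its log2 ratios of summed levels were -0.48 and 0.79, in opposite directions. Of 11 measured genes of the list 0 were higher and 1, Maob, an amine oxidase, was lower (-2.91 and -2.94), with a median of 0.16. Ddc, which makes serotonin and dopamine from their precursors, had -0.25 in EA06 and 2.93 in EA07.

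Genes of cell cycle exit included 2 higher of 7 measured, Cdkn1a and Gadd45a, and 1 lower, Ccnd2. Cdkn1a, the p21 inhibitor of cyclin-dependent kinases, had medians of 788 against 3.91 CPM and 444 against 28.2 CPM (log2 ratios of 1.196 and 2.13), with a highest cell of 9082 CPM. Ccnd2, cyclin D2, had -1.61 and -1.98. The median of that list was 0.62. Division genes were low: 13 of 16 G2 and M genes were not measured, and Ccnb2 and Cdk1, called lower, had 0 reads in the Cre-transcribing cells of both plates. These calls rested on single cells: Cdk1 reached 10 CPM in 1 Cre-silent cell of each plate and Ccnb2 in 1 of EA06 and 3 of EA07, and without the highest cells the log2 ratio was 0 for Cdk1 in both plates and for Ccnb2 in EA06. Of 8 measured S phase genes 0 were called, with medians of 2.21 in EA06 and 0.07 in EA07. In the unfolded protein response list 3 of 13 were lower (Sdf2l1, Pdia4, Pdia6) and Ddit3 was higher, with a median of -0.59. The EA06 ratio of Ddit3 rested mainly on 1 cell: it was 2.22, and 1.17 without the highest cells. Ddit3 reached 10 CPM in 12.5% of Cre-transcribing and 12.1% of Cre-silent cells of EA06. Of 14 immediate early genes, which respond to handling of tissue, 0 were called, with a median of 0.28.

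**Figure D5:**
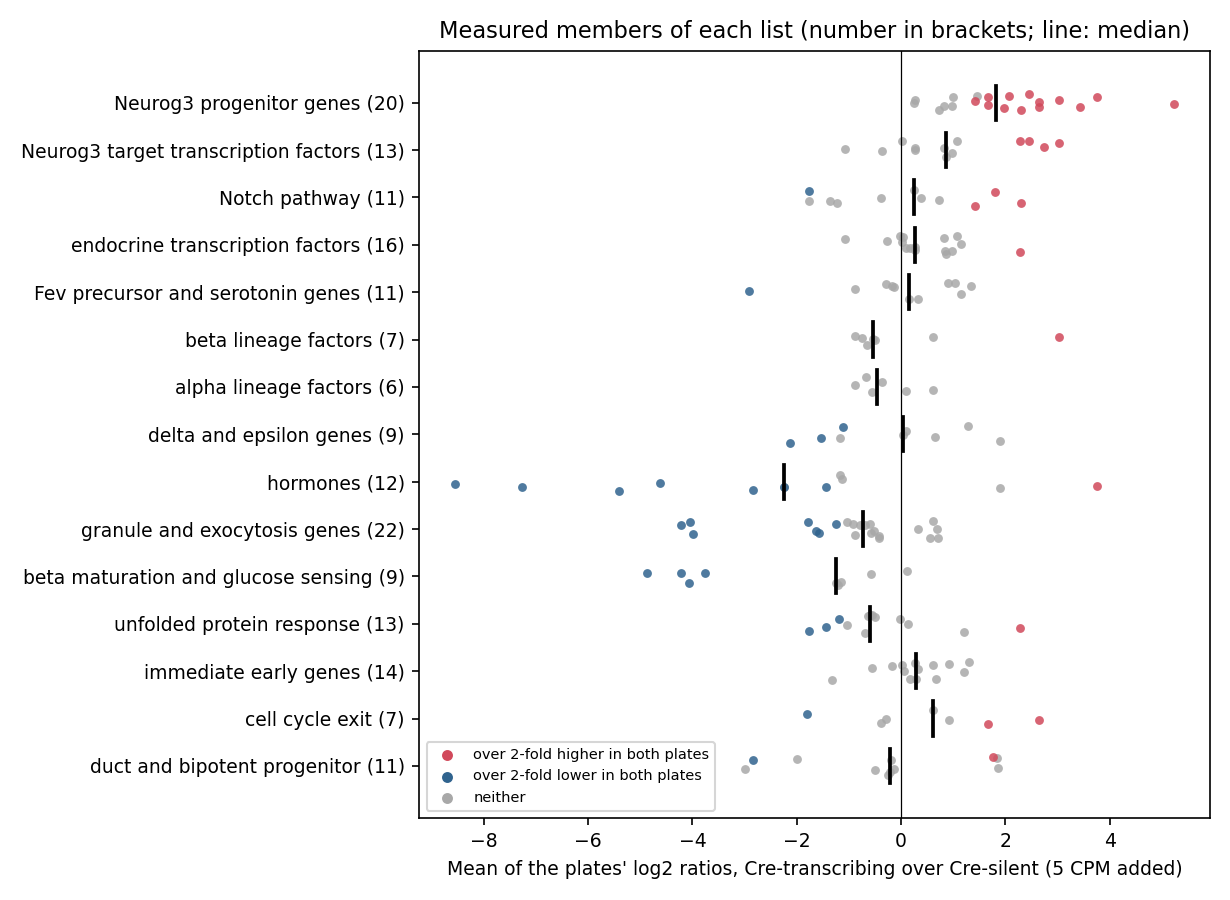
Mean of the plates' log2 ratios (5 CPM added) for the measured members of 15 lists (rows, number of members in brackets); points, genes, red and blue where past 2-fold in the same direction in both plates; lines, medians. The progenitor list, which holds Neurog3 itself, has its median at 1.82, the hormones at -2.24 and the glucose-sensing genes at -1.25. The lists were chosen with earlier results of these data known.

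The cells without a hormone give the comparison with hormone cells set aside: 52 Cre-transcribing (17 of EA06, 35 of EA07) and 25 Cre-silent (13 and 12). Pax4 was at 20 CPM in 36 of 52 against 6 of 25 of them, Mdk in 36 against 8, Cldn6 in 40 against 8 and Prom1 in 23 against 3. Because the plates make up unequal parts of these groups, levels are given by plate. Median Krt7 was 1192 against 120.1 CPM in EA06 and 1313 against 609 CPM in EA07. Median Chgb was 0 against 454 CPM and 315 against 2945 CPM, and median Rbp4 was 0 against 1422 CPM and 0 against 332 CPM. Here 636 of 9718 measured genes were higher in both plates (6.54%) and 461 lower (4.74%), among them 231 of the 360 higher and 159 of the 413 lower genes of the comparison over all cells. Log2 ratios over these cells, as a mean of the plates, were 3.85 for Pax4, 3.13 for Mdk, 3.77 for Cldn6 and -2.83 for Ins2. Gcg, Maob and G6pc2 had 1.06, 0.49 and 0.40 there, the opposite of their sign over all cells. The rule for these cells leaves out every cell with Gcg or Ins2 at 1000 CPM or more, so it bounds both of those ratios. The Gcg value rested mainly on 1 Cre-transcribing cell of each plate, at 158 CPM in EA06 and 991 CPM in EA07.

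Holding Neurog3 positive did not hold its level equal. Among cells with Neurog3 at 20 CPM, 61 Cre-transcribing and 16 Cre-silent, Neurog3 itself was still 3.58 higher on the log2 scale in Cre-transcribing cells. In that set 945 of 9621 genes were higher (9.82%), 234 of them among the 360, and 350 lower (3.64%). Pax4 was at 4.33, Btbd17 at 3.93, Gadd45a at 3.99, Sulf2 at 4.23, Mdk at 2.08 and Ins2 at -6.52. The Ins2 value rested mainly on 1 Cre-silent cell of each plate, at 2977 CPM in EA06 and 21130 CPM in EA07. The EA07 side of that set had 6 Cre-silent cells.

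Among Neurog3-negative cells, 7 Cre-transcribing against 45 Cre-silent, many leading genes did not keep their direction. Cck was at -2.03, Btbd17 at -2.79, Gadd45a at -2.01, Cbfa2t3 at -1.79 and Mdk at -1.20, while Pax4 was at 1.86, Myt1 at 3.44, Cldn6 at 1.85 and Krt7 at 1.69. Of 9356 genes measured there 1.61% were higher and 17.6% lower in both plates, 22 of the higher ones among the 360 of the comparison over all cells, and the median of all genes was -1.26. The EA06 side of that set was 1 Cre-transcribing cell. Among hormone-positive cells, 16 against 36, Pax4 was at -1.04, Prom1 at 4.998, Cck at 6.01 and Nnat at -6.58, where 393 of 9384 genes were higher (4.19%) and 882 lower (9.40%).

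Markers of other cell types were low or shared. The 14 duct genes, Krt7 among them, summed to 2083 against 3109 CPM in EA06 and to 3706 against 3634 CPM in EA07. Spp1, osteopontin, a duct marker, had highest cells of 635 against 31148 CPM in EA06 and 17186 against 16275 CPM in EA07 (log2 ratios of -5.60 and -0.40), with medians of 0 throughout. Of 11 measured duct genes Krt7 was called higher and Clu, clusterin, lower, with a median of -0.20. Sox9, the duct and progenitor factor, had medians of 0 against 20.4 CPM and 99.2 against 21.2 CPM. The 16 acinar genes summed to 141.4 against 79.9 CPM and 231 against 157.3 CPM, with 12, 10, 6 and 5 of them at 0 reads in that order. Ctrb1, a chymotrypsinogen, was over 2-fold higher in both plates, but at 0.97 in EA07 without the highest cells. Summed mesenchyme, endothelial, immune, erythroid and neural crest genes reached at most 64.7, 37.8, 35.1, 12.7 and 65.8 CPM, with C1qa, an immune gene, called lower, and 8 of 8 endothelial genes were at 0 reads in the Cre-transcribing cells of EA06. The part of duct or acinar RNA in the gene ratios was not tested.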

How the data were processed

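The deposited table holds raw read counts per gene and cell, 23002 genes and 495 cells, with no normalization by the authors. Per the submitters' processing notes, mm10 was the genome build, and STAR, FastQC and HTSeq were the tools; no version of them is stated there. PCR copies are counted as reads, since the method has no molecular identifiers, and near-identical genes such as Ins1 and Ins2, and overlapping genes, can share reads. Column names carry the knock-in strain word for every plate; groups follow the labels. A minimum of 50000 counts and 1000 genes per cell removed 0 cells. Doublets were not called.

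Counts were summed per plate and Cre group and divided by the group total (CPM). The log2 ratio used a pseudocount of 5 CPM, which understates low genes, and the plates' ratios were averaged with equal weight. Intervals are 95% exact and cover counting error only. The members and the 26 gene lists were chosen with earlier results of these data known. Named genes were the 15 with the largest mean ratio in each direction among called genes at 50 CPM in the higher group of both plates and at 10 CPM in 25% of its cells, up to 4 members of each list, the 8 genes most and least correlated with Cre, and 15 fixed genes; 115 in all. Gm-numbered, Rik, ribosomal, small RNA and transgene rows were left out. Scripts were tested on simulated data. Alternatives included edgeR 4.0.16 TMM factors and DESeq2 1.42.0 size factors, used for scaling only, and thinning each cell to 293943 counts. Gene positions are from GENCODE M21 (GRCm38).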

Additional observations from a re-analysis of the deposited data

Results flagged for a closer look

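GFP, a transgene row left out of the named genes, was read in every E17.5 cell, Cre-silent cells included. The lowest of these cells held 136.9 CPM, a Cre-transcribing cell of EA07, against 51 of 366 E15.5 cells with any GFP read.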

How the results depend on the processing

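The share of Neurog3-positive cells among Cre-transcribing cells was 77.9% at a limit of 50 CPM of Neurog3, 69.1% at 100 CPM, 97.1% at 1 read, 95.8% in EA06 alone and 100% at 1000 CPM of Cre. With hormones counted at 10000 CPM the hormone-positive share was 13.2% of Cre-transcribing and 39.3% of Cre-silent cells. The rank correlation of Cre with Neurog3 in EA06 was 0.65 within Cre-transcribing cells. Genes higher and lower in both plates made up 1.25% and 1.37% of measured genes with a pseudocount of 20 CPM, 3.59% and 3.57% with a filter of 50 CPM (230 and 229 genes), and 10.9% and 9.11% with the plates pooled. A single plate, where 1 ratio has to pass instead of 2, gave 11.7% and 11.1% without EA06 and 21.8% and 26.01% without EA07. The higher share was 9.82% in Neurog3-positive, 1.61% in Neurog3-negative and 6.54% in hormone-negative cells, and the lower share 17.6% in Neurog3-negative and 9.40% in hormone-positive cells. The other 82 values of these results stayed within set limits. Shares stayed within their counting interval, and counts of cells or genes within 1.5 times. Rank correlations moved by no more than 0.076, the standard deviation between the plates. Among single genes and list medians together, 2590 values moved by no more than the spread between the plates and 451 moved by more. Another 26 values, all of called genes, changed sign.

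Changes of sign were counted only for genes called over all cells. Genes not called could also change sign: Ghrl had a mean log2 ratio of 1.89 but -0.39 in EA06 alone. The changes that were counted lay in subsets of cells. In Neurog3-negative cells they were Cck (-2.03), Cer1 (-0.97), Fgd6 (-0.32), Sulf2 (-0.17), Mdk (-1.20), Neurod2 (-0.60), Gadd45a (-2.01), Mxd1 (-0.033), Brd7 (-0.48), Btbd17 (-2.79), Cbfa2t3 (-1.79), Ddit3 (-0.63), Insrr (-1.54), Dll3 (-0.0083), Sox4 (-0.30), Cdkn1a (-2.41) and Ctrb1 (-2.58). The median of all genes in the Neurog3-negative cells was -1.26, and their EA06 side held 1 Cre-transcribing cell. Listed values above that median were not lower than that of a typical gene there. In hormone-positive cells the changes of sign were Pax4 (-1.04) and Gadd45a (-0.19). In Neurog3-positive cells they were Pyy (0.36), Ccnd2 (0.59), Ppy (0.093) and Gcg (3.23), and in hormone-negative cells Maob (0.49), G6pc2 (0.40) and Gcg (1.06). The hormone-negative cells leave out, by their rule, every cell with Gcg at 1000 CPM or more. The cause of the changes of sign was not tested. The median of all genes was -0.05 with TMM and with DESeq2 factors, against -0.03. No paired analysis was possible because the replicate numbers only name cells. A single group of unknown embryos, wells without molecular identifiers and the few cells of some subsets limit every value.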
